A study of Rattus norvegicus with 8 samples.

Results

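The comparison described here set cultured rat astrocytes exposed to melanoma cells in the presence of an antibody against amyloid beta (anti-Abeta, 3 libraries) against the same exposure without it (control, 2 libraries). Its members are the 14138 genes, of 28546 entries in the deposited count table, that had 10 or more counts in at least 2 of these 5 libraries, out of 8 libraries in the series. In both groups the melanoma cells were 12-273 BM cells carrying a scrambled hairpin, and the astrocytes came from Sprague Dawley rat pups. A further 3 libraries (sh-APP), with an amyloid precursor hairpin in the melanoma cells, entered the estimate of the spread between libraries. The labels disagree on the exposure: they name a melanoma co-culture, 24 h in medium from melanoma cells, and astrocyte medium placed on melanoma cells. Not given in the sources used here are clone and dose of the antibody, any control antibody, and whether replicate libraries stem from different cultures. The p-values therefore measure the spread between these libraries, which may be technical.

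Amyloid beta is a peptide cut from the amyloid precursor protein by the beta- and gamma-secretases. Astrocytes take it up through lipoprotein receptors and secrete apolipoprotein E, which binds it. They also supply the brain with cholesterol, clear glutamate and potassium, build much of the extracellular matrix, and react to injury by raising intermediate filaments and inflammatory mediators. An antibody can engage receptors for its constant part on cells that carry them, the Fc gamma receptors. The question of the comparison is which astrocyte transcripts differ when amyloid beta is bound by an antibody during exposure to melanoma.

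Library totals ran from 34250464 to 47831595 counts, and at least 99.97% of each fell in tested genes. Of the entries, 9639 held no count in any of the 5 libraries. Near the filter, 127 genes just inside it (second-highest count of 10) had a median of 0.199 CPM, and 152 just outside it (count of 9) had a median of 0.178 CPM. CPM put the counts of each library on a common total, here with TMM scaling, a factor per library that removes differences in composition. The controls had TMM factors of 0.902 and 0.925 and the anti-Abeta libraries 1.02, 0.989 and 1.03. Anti-Abeta replicate 2 stood furthest from its group, with a chi-square per degree of freedom of 31.1 and 46.2 in its pairs against 19.6 for the other anti-Abeta pair and 18.5 for the 2 controls. No 2 libraries agreed within counting noise.

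The astrocyte label was checked against markers. The summed level of 15 astrocyte markers was 17880 to 18520 CPM in control and 16020 to 17420 CPM in anti-Abeta. Of these markers 4 were called higher and 3 lower (46.7% called). Microglia and macrophage markers summed to 12.4 to 15.9 CPM in control and 12.2 to 22.4 CPM in anti-Abeta, 11 of the 12 stayed under 1 CPM on average, Cx3cr1 was at 0 in all 5 libraries, and Cd68, a lysosomal protein of many cells, gave most of the sum. Endothelial markers summed to 6.07 to 6.67 CPM in control and 6.96 to 8.70 CPM in anti-Abeta, with Cldn5 at 0. Neuron markers summed to 369 to 391 CPM in control and 259 to 323 CPM in anti-Abeta, with 0 of 12 tested called higher and 3 lower. Map2 and Snap25 gave most of that sum. Of the 12, 6 had a log2 fold change above 0 and 6 below, with a median of 0.06. The share called was 25%, against 30.0% of all tested genes. The sum of oligodendrocyte lineage markers went the other way, from 2670 to 2781 CPM in control to 3147 to 3490 CPM in anti-Abeta. Of the 10 tested, 3 were called higher and 1 lower (40% called). The part of these shifts in the results below was not tested, and in bulk RNA fewer cells of a type and less RNA per cell cannot be told apart.

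Most differences were small, and more of the larger ones were falls. Of the 14138 genes, 4246 (30.0%) were called at an adjusted p under 0.05 (edgeR's quasi-likelihood test, Benjamini-Hochberg adjustment over all tested genes): 1844 higher in anti-Abeta (13.0%) and 2402 lower (17.0%). The median log2 fold change was 0.37 among genes called higher and -0.50 among those called lower. A fold over 1.5 was reached by 149 genes called higher (1.05%) and 766 called lower (5.42%). Beyond 2-fold there were 109 genes (0.771%), 30 higher (0.212%) and 79 lower (0.559%), of which 94 had a mean under 5 CPM. The remaining 15 were all lower in anti-Abeta. The split between directions depends on scaling. With library totals in place of TMM the median of all genes moved by 0.15 on the log2 scale, and 3608 genes were called higher and 1419 lower. The levels below are relative to TMM scaling.

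Direction also moved with gene length. The genomic span of 90.1% of the tested genes was taken from the RefSeq table of GRCr8, a later assembly than rn6. Genes called higher had a median span of 14.4 kb, genes called lower 31.8 kb and genes not called 27.0 kb. With these genes in 5 groups of 2549 by span, 22.5% of the shortest group and 6.87% of the longest were called higher. The share called lower was 9.69% in the shortest group, 23.1% in the next to longest and 17.9% in the longest. The median log2 fold change was 0.19 in the shortest group and -0.08 in the longest. The part of gene length in the calls below was not tested.

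Each control library was then used alone. All 4246 called genes kept their direction against control 1 alone and against control 2 alone. The calls themselves did not all hold. Against control 1 alone 2540 genes were called (18.0%), 925 higher (6.54%) and 1615 lower (11.4%). Against control 2 alone 765 were called (5.41%), 110 higher (0.778%) and 655 lower (4.63%). A lone control makes each estimate less precise, with a median SE of 0.175 against 0.138 for both, and the lone library is assumed to vary like the other groups. The differences were also larger against control 1 for 71.6% of the called genes, with a median size of 0.467 on the log2 scale against control 1 and 0.393 against control 2.

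Of the called genes, 663 (4.69% of those tested) were called in the same direction against each control alone. These holding genes comprised 83 higher in anti-Abeta (0.587% of those tested, 4.5% of those called higher) and 580 lower (4.10%, 24.1% of those called lower). A further 1728 called genes held against control 1 but not control 2, 90 held against control 2 but not control 1, and 1765 against neither. The number of holding genes is fragile. The smallest adjusted p against control 2 alone was 0.035, so many genes sat just under the threshold together. Leaving out anti-Abeta replicate 1 or 3, or sh-APP replicate 1 or 3, left 0 holding genes by edgeR, and leaving out anti-Abeta replicate 2 gave 534 higher and 1600 lower. Counts that do not rest on that threshold were chosen after seeing the data. At an unadjusted p under 0.05 in all 3 fits, 1098 genes were higher and 1911 lower. Among the 10084 genes with a mean of 5 CPM or more, 31 were over 1.5-fold higher against each control and 442 over 1.5-fold lower, with no overlap between groups. Groups that do not overlap are common here, with 7889 genes (55.8% of those tested), 4003 higher (28.3%) and 3886 lower (27.5%).

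**Figure D1:**
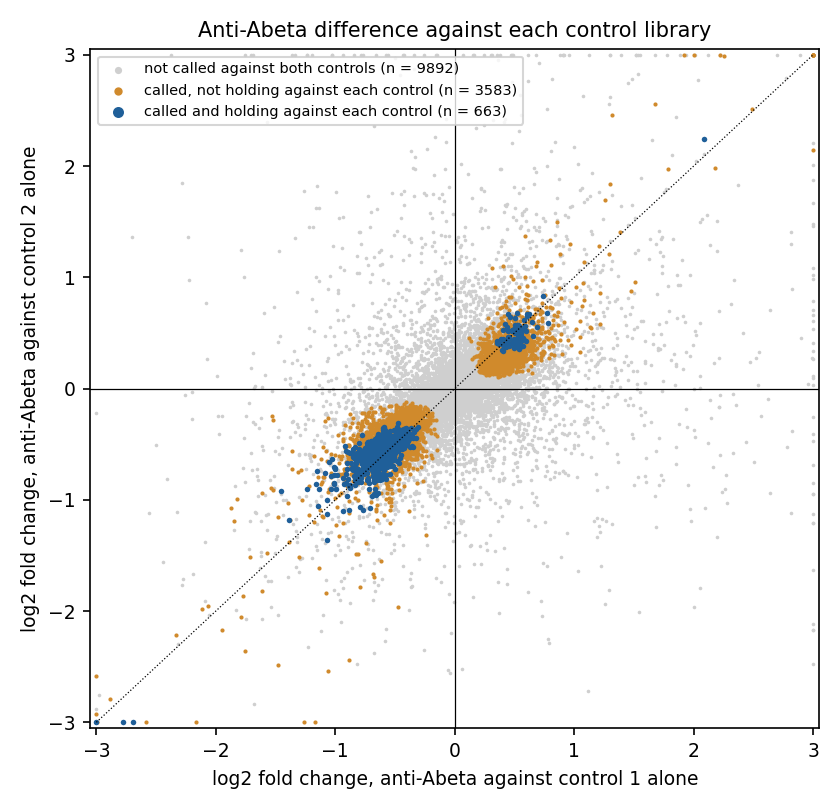
Log2 fold change of anti-Abeta against control 1 alone (x axis) and against control 2 alone (y axis), 1 point per tested gene, with 128 genes beyond 3 on the log2 scale drawn at the edge. Called genes lie in the lower left and upper right quadrants, and the 663 that hold against each control lie away from the origin, mostly in the lower left.

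Among holding genes with a mean of at least 5 CPM and no overlap between groups (82 higher and 575 lower at that level), the 12 largest rises were all under 2-fold. The 1 holding rise below that level was Slc8a2, a sodium-calcium exchanger, at a mean of 0.897 CPM (log2 fold change 2.17), named after its values were seen, and 5 holding falls also lay below it. Ier5l, a relative of the immediate early response genes, had 76.1 and 70.2 CPM in control and 114, 110 and 156 CPM in anti-Abeta, a log2 fold change of 0.79 ± 0.13 (SE). Gas1, a membrane-anchored protein that binds hedgehog ligands, had 60.8 and 68.3 CPM in control against 87.4, 107 and 118 CPM. Rgma, a repulsive guidance molecule and co-receptor for bone morphogenetic proteins, had 45.5 and 42.8 CPM against 66.2, 65.7 and 75.1 CPM. For each of these 3 genes every anti-Abeta library lay above both controls, and replicate 3 was the highest. Ltbp4, which tethers latent TGF-beta in the matrix, rose by 0.61 ± 0.09 on the log2 scale, with 51.8 and 49.7 CPM in control and 72.4, 79.3 and 80.3 CPM in anti-Abeta. Chst12, which sulphates chondroitin chains, rose by 0.64 ± 0.13. Lingo3, a leucine-rich repeat membrane protein, rose by 0.74 ± 0.11. Irf2bp1, a transcriptional corepressor, rose by 0.66 ± 0.11, and Hmga1, an architectural chromatin protein, by 0.58 ± 0.11. The others among the 12 largest were Dhrsx, Chadl, Ifitm10 and Lsp1, with log2 fold changes of 0.63, 0.63, 0.61 and 0.58. Chadl, Ifitm10 and Lsp1 overlap another gene in the RefSeq table, and with strandedness not stated in those sources their reads cannot be assigned with certainty.

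The 12 largest falls that held at a mean of at least 5 CPM included 2 named mitochondrial genes and 3 other mitochondrial entries. They also included 2 genes of cilia or centrioles and an importin. Iqcb1, a protein of the ciliary transition zone, had 35.4 and 36.5 CPM in control and 16.6, 19.9 and 14.2 CPM in anti-Abeta, a log2 fold change of -1.09 ± 0.14. Sclt1, a centriole appendage protein needed to dock cilia, had 23.6 and 21.9 CPM against 11.2, 12.0 and 8.95 CPM, also -1.09 ± 0.14. Ipo7, an importin that carries cargo into the nucleus, had 104 and 93.3 CPM against 54.6, 57.0 and 40.2 CPM, a fall by 0.96 on the log2 scale. In all 3 genes each anti-Abeta library was below both controls and replicate 3 was the lowest. Gk, glycerol kinase, fell by 0.98 ± 0.17, from 18.1 and 20.6 CPM to 9.67, 11 and 8.77 CPM. Tyw5, a tRNA-modifying hydroxylase, fell by 1.01 ± 0.15, and Naa16, an auxiliary subunit of an N-terminal acetyltransferase, by 0.95 ± 0.16. The other places among the 12 were taken by Mt-nd6 and Mt-atp6, described below, and by LOC691170 (-1.03 ± 0.15). The 3 other mitochondrial entries, which carry only the identifier of a sequence record, took the rest. Sclt1, Tyw5, Ipo7 and Naa16 overlap another gene in the RefSeq table.

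**Figure D2:**
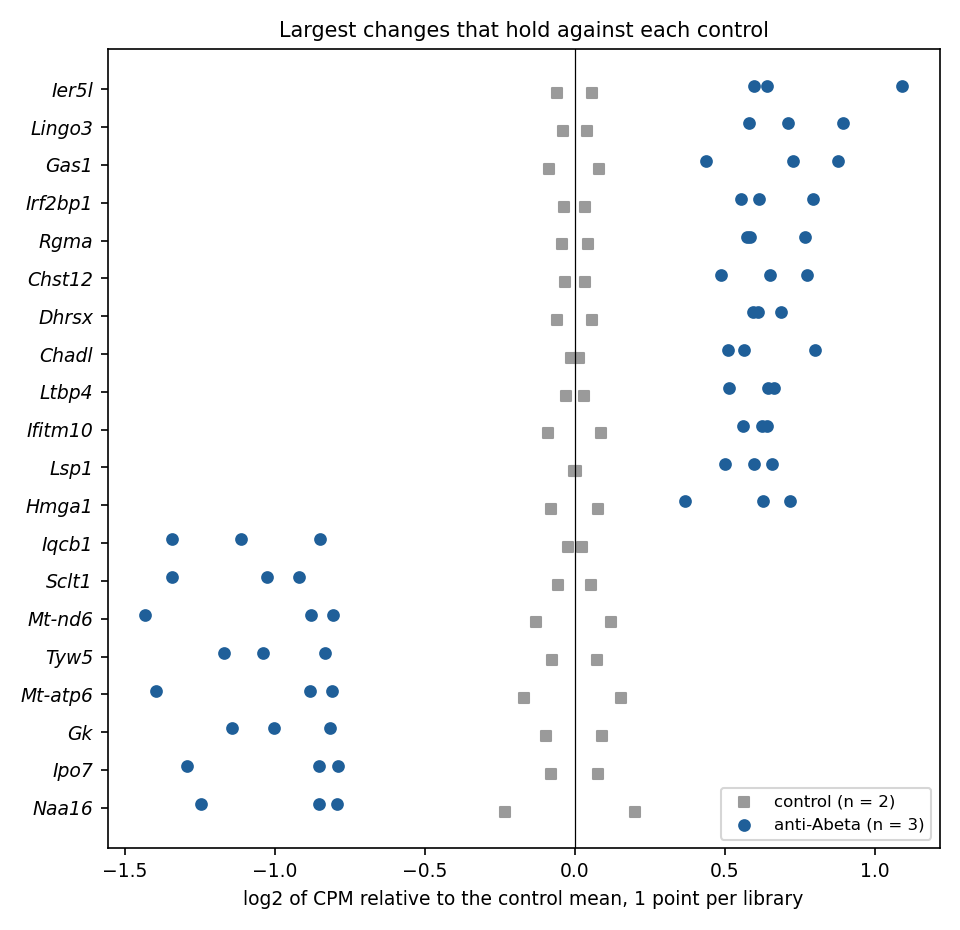
Log2 of CPM relative to the control mean (x axis) for the largest rises and falls that held against each control and carry a gene name, 1 point per library, squares for control and circles for anti-Abeta. The groups do not overlap for any gene shown, and the 2 control libraries of Naa16 lie furthest apart.

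A few genes of low level went to or from 0. Gpr165, an orphan receptor, had 10 and 15 counts in control and 0 in all 3 anti-Abeta libraries, at least 4.65-fold lower when a floor of 3 counts is set per library, and it held against each control. Mctp2 had 22 and 20 counts in control and 0 in anti-Abeta, at least 7.85-fold lower, with an adjusted p of 0.0587 against control 2 alone. In the other direction Prdm13, a transcription factor of neural progenitors, had 0 counts in both controls and 10, 13 and 9 counts in anti-Abeta, at least 3.19-fold higher, but it held against neither control alone. These 3 were picked after their values were seen.

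Fc gamma receptors, which bind the antibody's constant part, were scarce, while Fcgrt and Trim21, which bind it inside cells, were well detected. Fcgr1a and Fcgr3a, activating Fc gamma receptors, had 7 and 1 counts over all 5 libraries and were not tested. Fcgr2b, the inhibitory receptor, had 0.222 and 0.647 CPM in control and 0.456, 0.635 and 1.24 CPM in anti-Abeta, which overlap. Fcgrt, the neonatal receptor that recycles immunoglobulin inside cells, had 102 and 92.4 CPM in control against 124, 110 and 129 CPM, and it rose by 0.31 ± 0.09 on the log2 scale (adjusted p = 0.019). The groups of Fcgrt do not overlap, but its adjusted p was 0.142 against control 1 alone and 0.0694 against control 2 alone, and 0.0532 and 0.0649 without anti-Abeta replicate 1 or 3. Trim21, a cytosolic antibody receptor and ubiquitin ligase, fell from 45.5 and 51.9 CPM to 27.3, 36.8 and 25.7 CPM, by 0.70 ± 0.14 on the log2 scale, and held against each control. Of the 6 tested members of this list, 1 rose and 1 fell, 33.3% called against 30.0% of all tested genes.

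Of the genes that make, bind or clear amyloid beta none held against each control. App, the amyloid precursor gene itself, had 559 and 586 CPM in control and 514, 575 and 527 CPM in anti-Abeta, which overlap (log2 fold change -0.09 ± 0.08, adjusted p = 0.407). Of 27 tested members, 10 rose and 4 fell, 51.9% called against 30.0% of all tested genes. Mme, the amyloid beta-degrading protease neprilysin, was near the detection limit, with 12 and 31 counts in control and 0, 0 and 7 counts in anti-Abeta (log2 fold change -3.38 ± 1.11, adjusted p = 0.0382). It was named after its values were seen, overlaps another gene in the RefSeq table and held against neither control alone (adjusted p = 0.235 and 0.0852). Apoe, the lipoprotein that carries cholesterol between brain cells and binds amyloid beta, had 7151 and 7213 CPM in control and 10290, 8845 and 11020 CPM in anti-Abeta. Its log2 fold change was 0.49 ± 0.10 (adjusted p = 0.00524), with adjusted p = 0.0311 against control 1 alone and 0.0629 against control 2 alone. Its groups stood well apart, with anti-Abeta replicate 2 the nearest to control. Lrp10, a member of the lipoprotein receptor family, rose by 0.34 ± 0.07 and did not hold against control 2. Clu, the chaperone clusterin, rose by 0.26 ± 0.08 but held against neither control. Picalm, a clathrin assembly protein, fell by 0.49 ± 0.11, from 66.3 and 72.0 CPM to 49.9, 53.3 and 44.4 CPM, with adjusted p = 0.0573 against control 1 alone.

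The named transcripts of the mitochondrial genome fell together. They encode core subunits of the respiratory chain and of the ATP synthase, are made from long shared precursors, and are not independent of each other. All 12 named members tested were called lower, with a median log2 fold change of -0.86 against 0.02 over all genes. Of these 12, 10 held against each control. Of 14 other tested mitochondrial entries, which carry only the identifier of a sequence record, 7 were called lower and 4 held. Mt-co1, of cytochrome oxidase, had 18020 and 14200 CPM in control and 9003, 8393 and 8106 CPM in anti-Abeta (-0.92 ± 0.12). Mt-atp6, of the ATP synthase, had 18650 and 14930 CPM against 9567, 9091 and 6371 CPM (-1.01 ± 0.15). Mt-nd6, of complex I, had 175 and 147 CPM against 87.3, 91.8 and 59.6 CPM (-1.02 ± 0.15). In each of these 3 genes all anti-Abeta libraries lay below both controls and replicate 3 was the lowest. Control 1 was the higher control in each, so the falls were larger against it, as for Mt-co1 with -1.08 against control 1 alone and -0.76 against control 2 alone. The 2 members that did not hold were Mt-nd4 (-0.82 ± 0.16) and Mt-atp8 (-0.85 ± 0.17), named after their values were seen. The share of all counts on the named mitochondrial genes was 5.45% and 4.48% in the controls, 3.17%, 2.97% and 2.57% in anti-Abeta, and in sh-APP 1.69% to 2.12%. All 12 also fell under the other scalings, with medians from -0.71 to -0.88. Whether RNA quality or the composition of the libraries had a part in this was not tested.

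**Figure D3:**
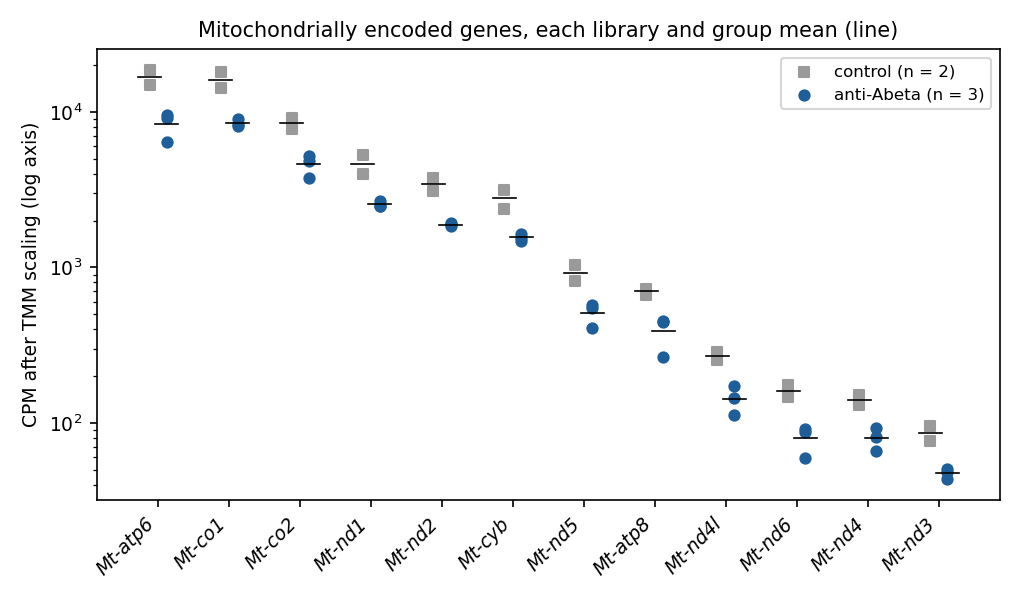
CPM on a log axis (y axis) of the 12 mitochondrially encoded genes tested (x axis), squares for the 2 control and circles for the 3 anti-Abeta libraries, with a line at each group mean. For every gene the anti-Abeta libraries lie below both controls.

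Nuclear genes for the respiratory chain did not share that direction. Of 31 tested subunits, 7 rose and 10 fell, 54.8% called against 30.0% of all tested genes. Their median log2 fold change was 0.0013, and with library totals the split was 13 to 2. Ndufs1, the iron-sulphur subunit of complex I, had 318 and 312 CPM in control and 252, 250 and 239 CPM in anti-Abeta. It fell by 0.35 ± 0.07 and was the only subunit of the list that held. Uqcrb, of complex III, fell by 0.70 ± 0.14, from 269 and 214 CPM to 139, 140 and 167 CPM, but its adjusted p against control 2 alone was 0.0749. Ndufs7, of complex I, and Cyc1, of complex III, rose by 0.38 ± 0.09 and 0.29 ± 0.07 on the log2 scale and held only against control 1. Glycolytic enzymes leaned upward, with 8 of 21 called higher and 1 lower (42.9% called) and a median of 0.20. Gapdh had 867 and 852 CPM in control and 1027, 1081 and 1045 CPM in anti-Abeta, with no overlap, and its adjusted p was 0.0515 and 0.0766 against control 1 and control 2 alone. No glycolytic enzyme held against each control, and of all genes called higher only 4.5% did.

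Splicing factors and other nuclear RNA-binding proteins fell as a list. Of 24 tested members 15 were called lower and 0 higher, 62.5% called against 30.0% of all tested genes. The median log2 fold change was -0.46, and 4 held. With library totals 11 were lower and 0 higher. Hnrnpu, which binds nuclear RNA and chromatin, had 1216 and 1170 CPM in control and 781, 916 and 772 CPM in anti-Abeta, a log2 fold change of -0.54 ± 0.09. Srsf10 and Srsf6, serine- and arginine-rich splicing regulators, fell by 0.58 ± 0.10 and 0.49 ± 0.09. For Srsf6 the controls had 169 and 173 CPM and the anti-Abeta libraries 120, 137 and 109 CPM, with replicate 2 the nearest to control in this gene and in Hnrnpu. Clk1, a kinase that phosphorylates splicing factors, fell by 0.88 ± 0.17, from 177 and 166 CPM to 105, 102 and 74.0 CPM. Its adjusted p was 0.0502 against control 2 alone, just outside the threshold. The fourth holding member was Srsf3 (-0.48 ± 0.10), named after its values were seen.

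Cholesterol synthesis genes were called in both directions. The pathway builds isoprenoid units from acetyl-CoA, condenses them into squalene, closes the ring to lanosterol and trims this to cholesterol, and its genes are controlled by SREBP-2, which is held in the endoplasmic reticulum by Insig and escorted out by Scap. Of 25 tested members 8 rose and 10 fell, 72% called against 30.0% of all tested genes. With library totals 12 rose and 6 fell. The 5 members that held had all fallen: Idi1, Sqle, Msmo1, Nsdhl and Sc5d. Over all tested genes, 4.5% of those called higher and 24.1% of those called lower held. Msmo1, a sterol methyl oxidase, had 1989 and 1821 CPM in control and 1389, 1383 and 1357 CPM in anti-Abeta (-0.47 ± 0.07). Sc5d, a sterol desaturase, had 378 and 399 CPM against 276, 295 and 270 CPM (-0.47 ± 0.07). Sqle, squalene epoxidase, had 537 and 508 CPM against 384, 410 and 397 CPM (-0.40 ± 0.07). The anti-Abeta libraries lay close together in these 3 genes and well below both controls. Nsdhl, a sterol dehydrogenase, fell by 0.47 ± 0.08, and Idi1, which makes the reactive isoprenoid unit, by 0.71 ± 0.13. The mevalonate kinases and decarboxylase stood on the other side: Mvk, Pmvk and Mvd had log2 fold changes of 0.37 ± 0.09, 0.31 ± 0.09 and 0.32 ± 0.09. So did the regulators Srebf2 (0.27 ± 0.07) and Scap (0.37 ± 0.08), while Insig1 fell by 0.23 ± 0.07. The directions did not divide by step. Hmgcs1, which comes before Mvk, was called lower. Tm7sf2, a late step between Cyp51 and Msmo1, was called higher, and both of its neighbours were called lower. The genes of this list other than Sc5d, Msmo1, Sqle and Nsdhl were picked after their values were seen.

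**Figure D4:**
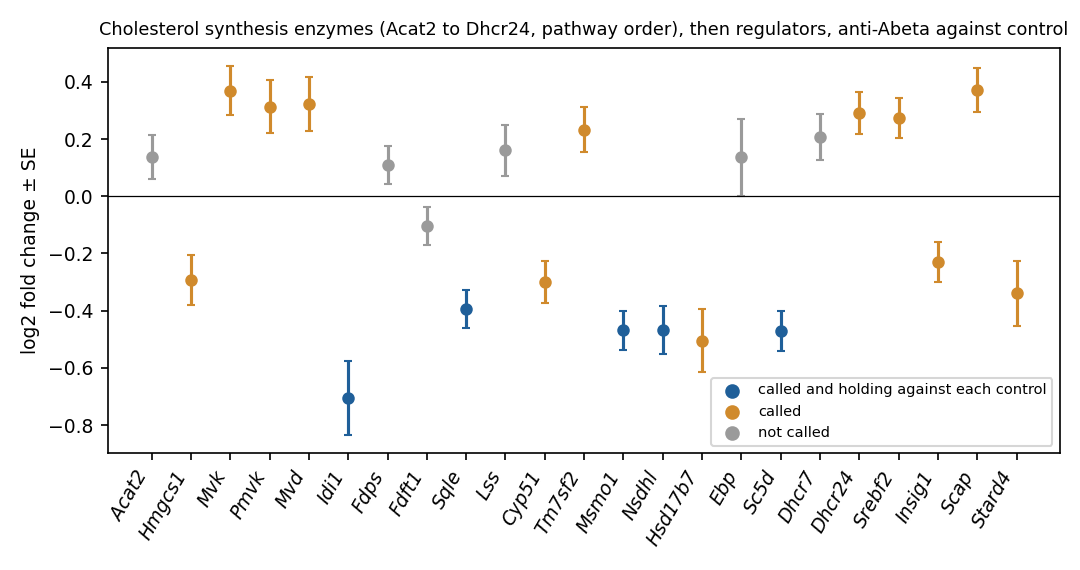
Log2 fold change ± SE of anti-Abeta against control (y axis) for 23 cholesterol genes (x axis), enzymes in pathway order followed by regulators. Points below 0 that held against each control are Idi1, Sqle, Msmo1, Nsdhl and Sc5d, and no gene shown above 0 held.

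Promoters of this pathway are shown because members with falls and members with rises share a sequence feature. RefSeq (GRCr8, a later assembly than the rn6 of the counts) gave the 250 bases before the start for 18 of the 25 genes. The CCAAT box, which the factor NF-Y binds, was searched as CCAAT on both strands. It was present in 14 of the 18, against 34.3% of all 27457 promoters of this length. It was in 7 of 8 promoters of genes called lower and in 4 of 5 of genes called higher, so its presence did not divide them. The sterol regulatory element written as TCACNCCAC was in 0 of the 18 and in 0.976% of all promoters, which says only that these letters are not in this window. The 3 sequences with falls and the 1 with a rise below run 5′ to 3′ on the gene's strand, with each CCAAT box, or its reverse complement, in capitals.
Idi1 (chr17:66547525-66547774, minus strand): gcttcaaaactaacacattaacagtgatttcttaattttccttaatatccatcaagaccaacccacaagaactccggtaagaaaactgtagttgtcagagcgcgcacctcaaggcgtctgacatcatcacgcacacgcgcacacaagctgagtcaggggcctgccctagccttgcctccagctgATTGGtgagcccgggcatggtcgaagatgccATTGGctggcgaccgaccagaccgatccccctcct
Msmo1 (chr16:29746863-29747112, plus strand): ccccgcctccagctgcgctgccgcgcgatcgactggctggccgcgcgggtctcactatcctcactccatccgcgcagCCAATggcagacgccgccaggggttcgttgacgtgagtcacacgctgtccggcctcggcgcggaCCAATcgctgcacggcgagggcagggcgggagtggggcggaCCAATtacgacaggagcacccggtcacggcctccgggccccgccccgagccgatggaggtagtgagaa
Nsdhl (chrX:155817110-155817359, plus strand): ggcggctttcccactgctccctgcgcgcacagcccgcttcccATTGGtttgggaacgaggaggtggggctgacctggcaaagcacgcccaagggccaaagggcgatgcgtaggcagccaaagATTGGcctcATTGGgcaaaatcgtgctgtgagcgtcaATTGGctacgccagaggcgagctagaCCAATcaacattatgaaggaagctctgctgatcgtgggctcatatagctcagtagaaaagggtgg
Mvk (chr12:47819504-47819753, minus strand): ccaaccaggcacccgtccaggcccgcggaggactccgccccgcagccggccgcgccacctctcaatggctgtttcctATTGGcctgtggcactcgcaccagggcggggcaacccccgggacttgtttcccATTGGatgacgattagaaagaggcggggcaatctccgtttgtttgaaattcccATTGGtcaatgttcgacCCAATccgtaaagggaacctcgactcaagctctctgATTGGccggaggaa
Nsdhl, which fell, and Mvk, which rose, each hold 5 such boxes, Msmo1 holds 3 and Idi1 holds 2.

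Antioxidant and thiol enzymes were mixed as a list but led by falls that held. Of 31 tested NRF2 targets and redox enzymes 7 rose and 7 fell, 45.2% called against 30.0% of all tested genes. With library totals 12 rose and 5 fell. Prdx1, a cytosolic peroxiredoxin, had 822 and 716 CPM in control and 487, 508 and 526 CPM in anti-Abeta (-0.60 ± 0.09). Prdx3, its mitochondrial relative, had 429 and 384 CPM against 262, 295 and 257 CPM (-0.58 ± 0.09). Gsta1, a glutathione transferase, had 179 and 165 CPM against 113, 113 and 129 CPM (-0.54 ± 0.09). Me1, the malic enzyme that makes NADPH, had 378 and 360 CPM against 260, 276 and 270 CPM (-0.46 ± 0.07). These 4 genes held against each control, as did Cat, catalase (-0.41 ± 0.07), named after its values were seen. No member that rose held, where 4.5% of all genes called higher and 24.1% of all genes called lower held.

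Matrix genes leaned upward. Of 29 tested collagens and collagen-modifying enzymes 11 rose and 3 fell, 48.3% called against 30.0% of all tested genes. The median log2 fold change of the list was 0.31. Col6a2 and Col6a1 encode chains of collagen VI, a microfibrillar collagen. Col6a2 had 47.9 and 45.7 CPM in control and 74.6, 66.6 and 64.7 CPM in anti-Abeta (0.55 ± 0.10) and held. Col6a1 had 59.1 and 59.2 CPM against 88.5, 86.2 and 97.8 CPM (0.62 ± 0.12), with an adjusted p of 0.0514 against control 2 alone. Both chains lay well above control in every anti-Abeta library. Col16a1, a minor collagen, rose by 0.49 ± 0.08 and held. Among 23 basement membrane and integrin genes 8 rose and 1 fell (39.1% called). Lamb2, a laminin chain of vascular basement membranes, had 196 and 221 CPM in control and 277, 292 and 305 CPM in anti-Abeta (0.48 ± 0.08). Itga7, a laminin-binding integrin, had 73.5 and 78.9 CPM against 110, 102 and 116 CPM (0.52 ± 0.08). Lamb2 and Itga7 both held. The 1 that fell was Itgb1, the shared beta subunit (-0.39 ± 0.08), with an adjusted p of 0.0531 against control 2 alone. Col16a1 and Itga7 overlap another gene in the RefSeq table.

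Of 21 brain proteoglycans and link proteins 5 rose and 2 fell, 33.3% called against 30.0% of all tested genes. Bcan and Ncan, the lecticans brevican and neurocan, had log2 fold changes of 0.52 ± 0.11 and 0.50 ± 0.12. Bcan had 552 and 494 CPM in control and 792, 635 and 827 CPM in anti-Abeta, and anti-Abeta replicate 2 was the nearest to control. Neither held against control 1 alone (adjusted p = 0.0545 and 0.0793), and both held against control 2. Sdc2, a heparan sulphate proteoglycan of the cell surface, fell from 368 and 341 CPM to 254, 282 and 250 CPM (-0.44 ± 0.08) and was the 1 member that held. Among 20 matrix proteases and inhibitors 5 rose and 1 fell, 30% called and so at the share of all tested genes, and none held. Mmp2, a gelatinase, rose by 0.39 ± 0.10, and Mmp16, a membrane-type protease, fell by 0.48 ± 0.12.

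Secreted and contractile TGF-beta genes showed 10 rises and 3 falls among 27, 48.1% called against 30.0% of all tested genes. Tagln, the actin-binding protein transgelin, had 44.4 and 37.5 CPM in control and 54.5, 61.3 and 65.4 CPM in anti-Abeta (0.56 ± 0.10). The receptor chains moved apart: Tgfbr1 fell by 0.66 ± 0.13, from 42.7 and 46.4 CPM to 29.9, 31.1 and 23.9 CPM, and Tgfbr2 rose by 0.59 ± 0.13. Tagln and Tgfbr1 held, and Tgfbr2 held only against control 1. In the insulin-like growth factor axis 6 of 14 members rose and 0 fell (42.9% called), and none held. The rises included Igf1r, the receptor (0.38 ± 0.09), and Igfbp2, a binding protein (0.36 ± 0.10). Thbs4, a thrombospondin of the matrix that shapes synapses, had 136 and 142 CPM against 200, 185 and 190 CPM (0.46 ± 0.07) and held. It was 1 of 2 rises among 19 synapse-shaping factors, of which 21.1% were called.

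**Figure D5:**
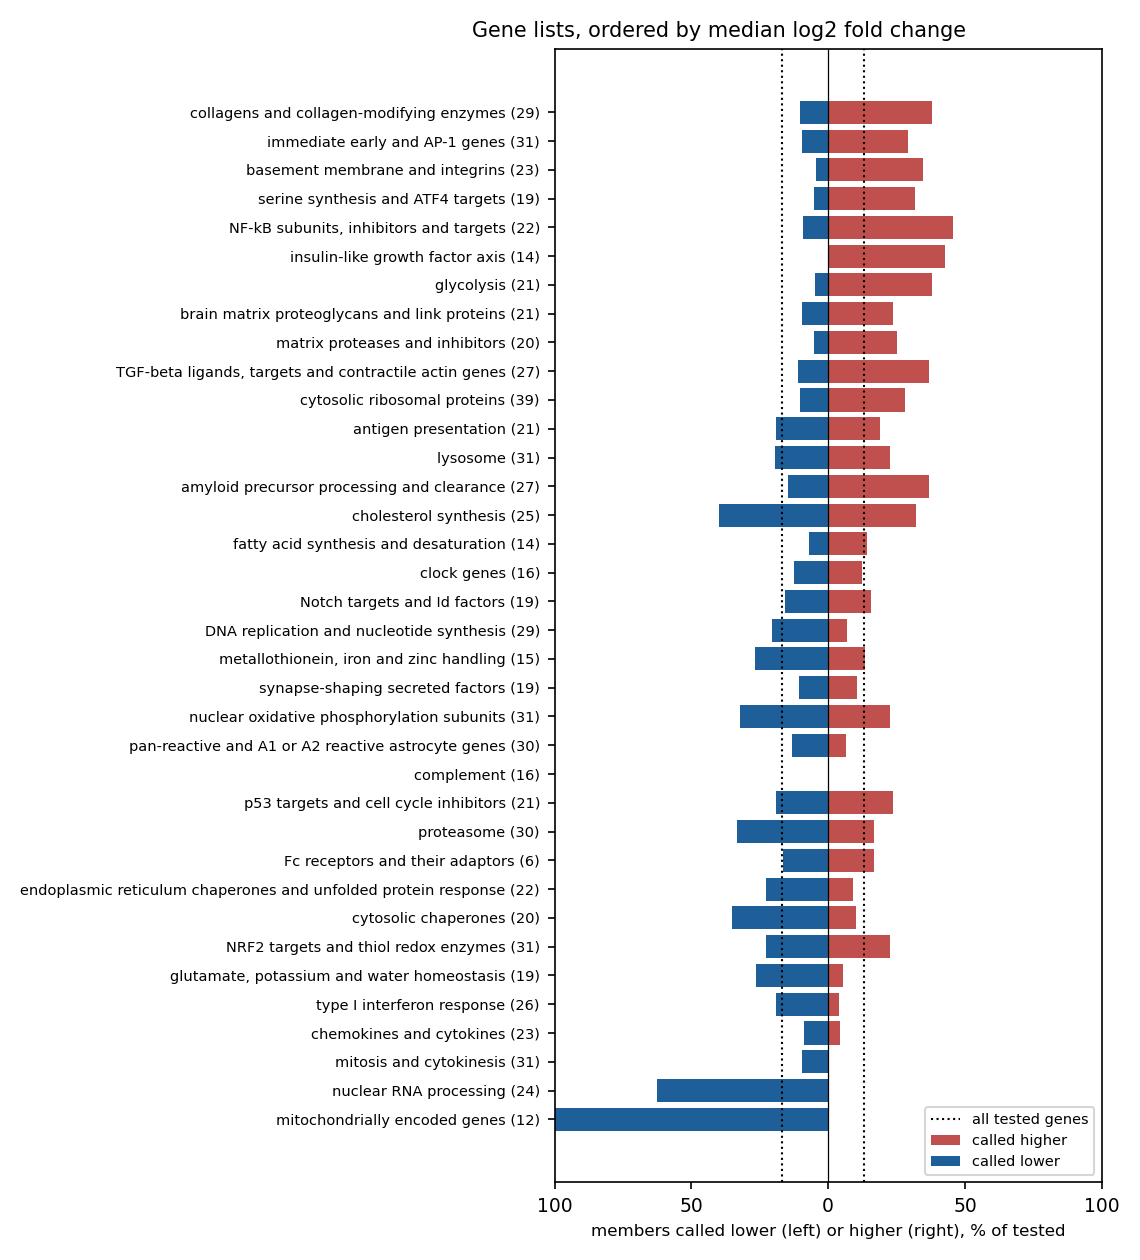
Share of tested members called higher (right) or lower (left) in anti-Abeta for 36 gene lists ordered by median log2 fold change, with the number tested in brackets and dotted lines at the shares over all tested genes (13.0% higher and 17.0% lower). Mitochondrially encoded and nuclear RNA processing genes stand at the bottom, and collagens at the top.

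Inflammatory genes did not move as a block. NF-kB, a family of transcription factors held in the cytoplasm by inhibitors, had 10 rises and 2 falls among 22 subunits, inhibitors and targets. The share called was 54.5%, against 30.0% of all tested genes, with a median log2 fold change of 0.26. Relb, a subunit of the non-canonical arm, had 35.5 and 35.5 CPM in control and 52.5, 47.4 and 55.1 CPM in anti-Abeta (0.54 ± 0.09). Chuk, the kinase IKK-alpha, had 99 and 106 CPM against 63.3, 74.1 and 63.9 CPM (-0.62 ± 0.09). Both held, in opposite directions. Ccl2, the chemokine that draws monocytes, had 1217 and 1242 CPM in control and 782, 903 and 820 CPM in anti-Abeta, a log2 fold change of -0.56 ± 0.10, and held. Cx3cl1, fractalkine, had 154 and 168 CPM against 212, 224 and 241 CPM (0.49 ± 0.09), with an adjusted p of 0.0552 against control 2 alone. These and Il33 were the 3 of 23 chemokines and cytokines that were called, 13% against 30.0% of all tested genes. The Il33 call (-0.51 ± 0.17) was lost in 13 of 20 alternatives and held against neither control. Cxcl10 had 11 and 19.6 CPM in control and 6.47, 22.9 and 7.89 CPM in anti-Abeta, a spread within the group wider than the difference between the groups.

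Of 26 type I interferon response genes 1 rose and 5 fell, 23.1% called against 30.0% of all tested genes, and none held. With library totals 4 rose and 2 fell. Eif2ak2, the double-stranded RNA kinase, fell by 0.52 ± 0.12. For antigen presentation, 38.1% of 21 genes were called, 4 in each direction, against 30.0% of all tested genes. B2m, the invariant chain of class I molecules, had 294 and 286 CPM in control and 206, 229 and 191 CPM in anti-Abeta (-0.48 ± 0.08). Erap1, which trims peptides for class I molecules, fell by 0.40 ± 0.08, and Pdia3, a thiol chaperone of their assembly, by 0.47 ± 0.09. B2m, Erap1 and Pdia3 held. Of 16 complement genes 0 were called by edgeR, 0 had an unadjusted p under 0.05, and 0 were called by DESeq2 or limma-voom, while with library totals 2 were higher. C3 had 36.3 and 48.1 CPM in control and 45.7, 45.4 and 45.8 CPM in anti-Abeta, so its direction turned on which control was used, with log2 fold changes of 0.33 and -0.10 against control 1 and control 2 alone.

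Among 30 genes of reactive astrocytes 2 rose and 4 fell, 20% called against 30.0% of all tested genes. With library totals 10 rose and 2 fell. Gfap, the astrocyte intermediate filament, had 2921 and 2893 CPM in control and 3911, 3382 and 3877 CPM in anti-Abeta, with no overlap. Its log2 fold change was 0.36 ± 0.11 (adjusted p = 0.0287), and it held against neither control alone (adjusted p = 0.119 and 0.167), nor without anti-Abeta replicate 1 or 3 (0.0842 and 0.0851). Vim and Lcn2 had log2 fold changes of 0.23 ± 0.08 and 0.24 ± 0.09 and did not pass (adjusted p = 0.0524 and 0.0612). Cd109, a surface protein that binds TGF-beta, had 9.91 and 10.7 CPM in control and 6.36, 6.01 and 5.76 CPM in anti-Abeta (-0.77 ± 0.15) and was the 1 list member that held. Cp, the ferroxidase ceruloplasmin, fell by 0.52 ± 0.10, with an adjusted p of 0.0501 against control 2 alone. Of 31 immediate early and AP-1 genes 9 rose and 3 fell (38.7% called), and none held. Junb rose by 0.42 ± 0.09 and Fos by 0.36 ± 0.10.

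Of 19 genes of glutamate, potassium and water homeostasis 5 fell and 1 rose, 31.6% called against 30.0% of all tested genes, with a median of -0.10. With library totals 2 fell and 4 rose. Aqp4, the water channel of astrocyte endfeet, had 2213 and 2313 CPM in control and 1480, 1830 and 1735 CPM in anti-Abeta (-0.43 ± 0.09) and held. Gja1, a connexin of gap junctions, had 3507 and 3848 CPM against 2468, 3067 and 2382 CPM (-0.48 ± 0.11), with an adjusted p of 0.0615 against control 1 alone. Slc1a3, a glutamate transporter, fell by 0.28 ± 0.08 and held against neither control. In all 3 genes anti-Abeta replicate 2 was the nearest to control, and no anti-Abeta library reached it. Id2, an inhibitor of helix-loop-helix factors, had 78.4 and 88.7 CPM against 48.6, 53.6 and 50.4 CPM (-0.72 ± 0.09) and held. Of the 19 Notch and Id genes 3 rose and 3 fell, 31.6% called and so near the share of all tested genes.

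Among 15 genes of metallothioneins, iron and zinc handling 4 fell and 2 rose, 40% called against 30.0% of all tested genes. The median log2 fold change of this list was 0.04. Tfrc, the transferrin receptor, had 710 and 724 CPM in control and 410, 506 and 465 CPM in anti-Abeta (-0.64 ± 0.11). Ireb2, an RNA-binding protein that stabilises the transferrin receptor message, had 34.9 and 33.1 CPM against 21.9, 19.4 and 20.7 CPM (-0.72 ± 0.10). Tfrc and Ireb2 both held. Clock, the circadian activator, fell from 56.1 and 64.6 CPM to 35.4, 42.5 and 37.4 CPM (-0.65 ± 0.12) and held. Of the 16 clock genes 2 rose and 2 fell, 25% called against 30.0% of all tested genes. The clock output gene Dbp and the repressor Nr1d1 rose by 0.35 ± 0.09 and 0.37 ± 0.08, and Nr1d2 fell with Clock by 0.45 ± 0.09.

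Of 31 mitosis genes 3 were lower and 0 higher, 9.68% called against 30.0% of all tested genes, none held, and with library totals none was called. The median of the list was -0.30, and Plk4, the centriole duplication kinase, had 33.0 and 36.2 CPM in control and 12.8, 25.8 and 16.9 CPM in anti-Abeta, with replicate 2 between the others and control. Its call was lost without anti-Abeta replicate 1 or 3, without either control and with DESeq2 (adjusted p = 0.0795). Among 29 replication genes 6 fell and 2 rose, 27.6% called and so near the share of all genes, and with library totals 3 fell and 5 rose. Tyms, which makes thymidylate, had 42.7 and 42.5 CPM against 22.1, 29.2 and 24.5 CPM (-0.75 ± 0.14), and Rrm1, of ribonucleotide reductase, fell by 0.33 ± 0.07. Both held, although Rrm1 was lost with library totals (adjusted p = 0.0694).

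Of 30 proteasome subunits 10 fell and 5 rose, 50% called against 30.0% of all tested genes. With library totals 5 fell and 10 rose. Psma3, of the catalytic core, had 409 and 363 CPM in control and 237, 256 and 249 CPM in anti-Abeta (-0.64 ± 0.09). Psmc6, an ATPase of the cap, had 309 and 290 CPM against 179, 215 and 162 CPM (-0.69 ± 0.12), and Psmd6 fell by 0.46 ± 0.07. All 3 held, and no proteasome subunit that rose did, where 4.5% of all genes called higher and 24.1% of all called lower held. Among 20 chaperones, listed as cytosolic although not all are, 7 fell and 2 rose, 45% called against 30.0% of all tested genes. With library totals 5 fell and 7 rose. Dnaja1, a co-chaperone of heat shock proteins, had 1037 and 953 CPM in control and 678, 733 and 669 CPM in anti-Abeta (-0.52 ± 0.08). Hspd1, the mitochondrial chaperonin, fell by 0.48 ± 0.08 and Hspa4 by 0.40 ± 0.07. Dnaja1, Hspd1 and Hspa4 held. Of 31 lysosomal genes 7 rose and 6 fell, 41.9% called. Lamp2, a lysosomal membrane protein, had 1244 and 1064 CPM against 770, 773 and 840 CPM (-0.54 ± 0.09) and was the 1 that held. Ctsd, the protease cathepsin D, rose by 0.32 ± 0.07 with an adjusted p of 0.0757 against control 2 alone.

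Of 39 cytosolic ribosomal proteins 11 rose and 4 fell (38.5% called). Rpsa and Rpl13 rose by 0.42 ± 0.08 and 0.43 ± 0.09 on the log2 scale and held, but ribosomal protein genes have many processed copies in the genome between which reads can be split, so their levels are uncertain. Among 19 genes of serine synthesis and the ATF4 response 6 rose and 1 fell (36.8% called), and none held. Of 14 fatty acid synthesis genes 2 rose and 1 fell (21.4% called), and of 21 p53 targets and cell cycle inhibitors 5 rose and 4 fell (42.9%). Of 22 endoplasmic reticulum chaperones 2 rose and 5 fell (31.8% called), and 7 rose and 3 fell with library totals. The share called over all tested genes was 30.0%. Phgdh, the first enzyme of serine synthesis, had 291 and 319 CPM in control and 396, 390 and 422 CPM in anti-Abeta (0.40 ± 0.07), with an adjusted p of 0.0629 against control 2 alone.

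Markers of other cell types were read gene by gene. Snap25, a synaptic vesicle fusion protein, had 71.1 and 65.4 CPM in control and 45.1, 50 and 48.1 CPM in anti-Abeta (-0.51 ± 0.09) and held. The other neuron markers called were Map2, a dendrite protein (-0.51 ± 0.12), and Nefl, a neurofilament, with 64 and 39 counts in control and 9, 0 and 8 counts in anti-Abeta, and neither held against each control. Cspg4, a proteoglycan of oligodendrocyte precursors and pericytes, had 6.05 and 4.83 CPM against 9.58, 10.6 and 11.6 CPM (0.96 ± 0.27), and Olig1 and Cnp, of the oligodendrocyte lineage, rose by 0.32 ± 0.08 and 0.32 ± 0.07. Ugt8, which makes myelin galactolipid, fell by 0.66 ± 0.21. Olig1 and Cnp held only against control 1, and Cspg4 and Ugt8 against neither control. Of the 4 microglia and 3 endothelial markers tested, 0 were called by edgeR, DESeq2 or limma-voom, and 1 and 0 had an unadjusted p under 0.05 in edgeR. Of 9 pericyte and fibroblast markers 1 rose (11.1% called), and of 3 ependymal markers 1 fell (33.3%), against 30.0% of all tested genes. The melanocyte list was read because the culture met melanoma cells. Its summed level was 4367 to 4448 CPM in control and 3575 to 3866 CPM in anti-Abeta, nearly all from Gpnmb, a membrane glycoprotein not limited to pigment cells, at 4247 and 4178 CPM against 3661, 3706 and 3446 CPM. Of its 6 tested members 2 fell (33.3% called). Gpnmb held against neither control (adjusted p = 0.0919 and 0.127), and Slc24a5, an ion exchanger of melanosomes (-0.86 ± 0.16), held but overlaps Myef2 in the RefSeq table.

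The sh-APP libraries share both controls with this comparison, so the 2 sets of differences are not independent, and the difference between the arms was not tested here. Against control, 7784 of the 14138 genes were called in sh-APP. For some genes the values in the 2 arms were alike: Id2 had a log2 fold change of -0.72 in anti-Abeta and -0.62 in sh-APP, Thbs4 0.46 and 0.44, and Sc5d -0.47 and -0.54. For others the sh-APP value was the larger, as for Mt-atp6 with -1.01 and -1.92, Ltbp4 with 0.61 and 1.25, and Ipo7 with -0.96 and -1.57. Some had a value near 0 in sh-APP. Gsta1 had -0.54 in anti-Abeta and -0.003 in sh-APP (adjusted p = 0.982), Aqp4 had -0.43 and 0.04 (adjusted p = 0.725), and Col6a1 had 0.62 and 0.02 (adjusted p = 0.917).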

How the data were processed

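Values in the deposited table are raw counts for each gene symbol: whole numbers whose totals differ. Per the submitters' processing notes, the build was rn6 and the tools included HTSeq 0.11.1, STAR 2.6.0a and Trimmomatic 0.36, with no role or settings given. Groups came from the sample labels. Totals of 34250464 to 47831595 counts make counting error small beside the spread between libraries.

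The robust quasi-likelihood test of edgeR 4.0.16, under R 4.3.3, was fitted to all 8 libraries by group, with TMM factors and 5 residual degrees of freedom. P-values were adjusted by Benjamini-Hochberg over the 14138 genes with 10 or more counts in at least 2 of the 5 libraries, at 0.05. The fit was repeated without control 2 and without control 1 (4 residual degrees of freedom). A call holds when it passes, in the same direction, in all 3 fits. Levels are CPM after TMM scaling, and SE is the log2 fold change over the root of F. The scripts were tested on simulated data.

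The members, the 36 pathway lists and the 8 marker lists were chosen with earlier results of these data known. Lists are described by counts and medians, with no set test. Genes named are the 12 largest holding changes in each direction with no overlap and a mean of at least 5 CPM, the called members of every list with the lowest p (at most 4), and a chosen set, App, Aplp2, Gfap, Vim, Lcn2, C3, Ccl2, Cxcl10, Apoe, Clu, Fcgrt and Fcgr2b. Only part of them is printed, and some cholesterol genes are counted but not reported singly here. Overlapping genes and promoters came from RefSeq tables of GRCr8, a later build than rn6. Of the tested symbols 90.1% matched, and overlap is marked for only part of the named genes. Gene symbols that had been turned into dates (26, of which 20 were tested) are not named. Alternatives were DESeq2 1.42.0, limma-voom (limma 3.58.1), 3 other scalings, 3 other filters, the non-robust spread, the 5 libraries alone, a replicate block, a fit without mitochondrial genes, and leaving out each library.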

Additional observations from a re-analysis of the deposited data

How the results depend on the processing

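Calls were steadier than the holding counts. The genes called higher (1844) and lower (2402) stayed within 1.5 times under every alternative except library totals (3608 and 1419) and the loss of 1 library, where they ranged from 110 to 1934 higher and from 655 to 2852 lower. The lowest counts came without control replicate 1. Higher calls were 925 without control replicate 2, 1215 without anti-Abeta replicate 1 and 960 without anti-Abeta replicate 3. The share called higher was 43.4%, 54.3% with upper-quartile factors (2423 and 2043) and 71.8% with library totals. DESeq2 shared 4196 of the 4246 calls and limma-voom 3986.

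The holding genes (83 higher and 580 lower) became 294 and 1072 with DESeq2, 64 and 690 by limma-voom, 54 and 488 under size factors of DESeq2's kind, 833 and 234 with library totals, 53 and 474 with a filter of 1 count, 44 and 376 with filterByExpr, 118 and 495 with 1 CPM, 43 and 487 with the non-robust spread, and 41 and 386 without the mitochondrially encoded genes. They became 0 and 0 in edgeR with upper-quartile factors and in the fit of 5 libraries. At an unadjusted p under 0.05 in all 3 fits these 2 settings gave 1682 and 1474, and 798 and 1624, where the fit of 8 libraries gave 1098 and 1911. Leaving out 1 anti-Abeta or sh-APP library gave 0 to 534 higher and 0 to 1600 lower. It was 0 without anti-Abeta replicate 1 (unadjusted 1015 and 1487), anti-Abeta replicate 3 (826 and 1500), sh-APP replicate 1 (1109 and 1779) and sh-APP replicate 3 (1030 and 1675), and 10 and 178 without sh-APP replicate 2. By size, over 1.5-fold against each control with no overlap and 5 CPM, they were 31 and 442. This and the unadjusted rule were chosen after seeing the data.

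Of the 172 named genes 165 were called, and 71 of these kept their call in all 20 alternatives. Signs turned only for genes that were not called: App (0.061) and Aplp2 (0.052) with library totals, and, on leaving out 1 library, C3 (from -0.10 without control replicate 1 to 0.33) and Cxcl10 (from -1.11 to 0.17, the latter without control replicate 2, and 0.00018 without anti-Abeta replicate 1).

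With the replicate number as a block 1335 genes were higher and 2183 lower, 3333 of the 4246 calls among them. Same-numbered control and anti-Abeta libraries correlated at 0.0234 and 0.0488 in their deviations from the group means, and same-numbered anti-Abeta and sh-APP libraries at 0.125, 0.113 and -0.0138. Differently numbered pairs of anti-Abeta and sh-APP libraries ran from -0.133 to 0.0239. The deviations of the 2 controls mirror each other, so these correlations cannot settle whether the numbers mark pairs. The main fit does not treat them as pairs. With 2 controls, a value of 1 library moves every contrast. Calls also went with level: genes not called had a median of 9.98 CPM, against 53.2 CPM for those called higher and 72.3 CPM for those called lower, and 8 of the 127 genes at the filter were called.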
